A study of Mus musculus with 12 samples.

Results

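Kit and Kitl form a receptor and ligand pair of the postnatal testis, and their transcripts were followed across testes of Sohlh1 knockout, Sohlh2 knockout and wild-type mice. All probe sets that the platform annotation assigns to exactly Kit or Kitl were taken, 2 for Kit and 4 for Kitl, 6 of the 45101 probe sets in the deposited table, and each is reported separately. All 6 lay above the filter on dim signals, a value of 48.6 on at least 4 of the 12 arrays.

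The samples were whole testes collected at postnatal day 7, in 3 groups of 4 arrays. The groups were mice lacking Sohlh1 on both alleles (Sohlh1-/-), mice lacking Sohlh2 on both alleles (Sohlh2-/-), and wild type, and all groups had the strain label C57BL/6, 129S5, SvEvBrd hybrid background. Each array held RNA from 3 testes of 3 animals, so a group stood for 12 animals and replicate error is the spread between pools. The labels do not say which part of either gene was deleted or whether the loss was restricted to a cell type. Both targeted genes encode germ cell transcription factors of the basic helix-loop-helix family. Values are MAS5 signals on a linear scale, and every log2 fold change is a difference of log2(signal + 14.2), which draws the changes of dim probe sets towards 0.

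Kit is a receptor tyrosine kinase on the cell surface, and Kitl, also called stem cell factor or Steel factor, is its ligand. In the postnatal mouse testis Kit is best known from spermatogonia that have begun to differentiate, whose survival and division depend on it, and undifferentiated spermatogonia carry little of it. Kitl is made by Sertoli cells, the somatic cells that surround the germ cells, as a membrane-bound and a soluble form that arise by alternative splicing and cleavage. Leydig cells, mast cells and melanocytes also carry Kit. In a bulk sample, fewer cells of a type and less RNA per cell cannot be told apart.

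The promoters are shown because helix-loop-helix factors bind E-boxes, the motif CANNTG, and because the 2 genes behaved differently. Both sequences are from RefSeq on GRCm38.p6 and run 5′ to 3′ on the plus strand, with 150 bases before the transcription start and 20 bases from it onward. Capitals mark matches to CANNTG and to TATAAA. The Kit window is chr5:75574837-75575006 and the Kitl window is chr10:100015671-100015840.
Kit: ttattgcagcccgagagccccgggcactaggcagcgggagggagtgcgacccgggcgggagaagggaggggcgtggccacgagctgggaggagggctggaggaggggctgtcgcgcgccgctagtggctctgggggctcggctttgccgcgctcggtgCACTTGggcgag
Kitl: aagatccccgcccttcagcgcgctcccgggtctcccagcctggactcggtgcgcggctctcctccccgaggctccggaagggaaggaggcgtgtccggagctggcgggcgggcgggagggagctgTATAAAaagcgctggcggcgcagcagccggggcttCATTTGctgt

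The Kit window held an E-box, CACTTG, at bases 9 to 14 counted from the start site as base 1. RefSeq lists another Kit start 4 bases further on, from which the same letters are bases 5 to 10. The Kitl window also held an E-box, CATTTG, at bases 11 to 16, and a TATAAA at bases -25 to -20, which the Kit window did not hold. CANNTG is its own reverse complement, and TATAAA was searched on both strands, with no overlap between the matches. Over 32851 RefSeq promoter windows of 300 bases, longer than those printed, 72.3% held CANNTG and 13.6% held TATAAA. An E-box near a start site is thus common. The 300-base windows of Kit and Kitl held 1 E-box each, and that of Kitl also 1 TATAAA. These matches describe the letters and do not show that a factor binds them.

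The targeted genes were read as a check of the labels. Sohlh1 signal was 50.1 to 104 on the arrays labelled Sohlh1 knockout 2, 3 and 4, and 595 on Sohlh1 knockout 5, against 1125 to 1233 in wild type. Sohlh2 signal was 1847 on Sohlh2 knockout 1 and 73.2 to 157 on Sohlh2 knockout 3-1, 4 and 5, against 885 to 1200 in wild type. On Sohlh1 knockout 5 Sohlh2 was at 94.4, against 1556 to 1783 on Sohlh1 knockout 2, 3 and 4. On Sohlh2 knockout 1 Sohlh1 was at 126.5, against 465 to 563 on Sohlh2 knockout 3-1, 4 and 5. Thus 2 arrays went against their labels by both genes, each with values near those of the other knockout. Whether the probe sets lie inside the deleted parts is not given, so the check holds only if they do. The 3′ to 5′ signal ratio of the beta-actin and Gapdh control probe sets, a measure of RNA integrity and labelling, was 2.405 on Sohlh2 knockout 1 and 1.56 on Sohlh1 knockout 2, against 0.987 to 1.08 on the remaining ones. Groups are used as labelled throughout, and results for Kit and Kitl, and calls of the other named genes, that change without these 3 doubted arrays are given without them as well.

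Kit was lower in both knockouts. The brighter Kit probe set, 1452514_a_at, had signals of 447, 542, 329.5 and 494.5 on the Sohlh1 knockout arrays, 382, 524, 372 and 491 on the Sohlh2 knockout arrays, and 1591, 1598, 1953 and 1815 on the wild-type arrays. Every knockout array lay below every wild-type array, and the knockout groups overlapped each other. The means were 453 ± 91.2 in Sohlh1 knockout, 442 ± 76.6 in Sohlh2 knockout and 1739 ± 176 in wild type (SD, n = 4 each), so 26.1% and 25.4% of the wild-type signal was left in the Sohlh1 and the Sohlh2 knockout. In limma the log2 fold change was -1.92 (SE 0.157, 95% interval -2.26 to -1.59, adjusted p = 1.94e-05) in the Sohlh1 knockout. It was -1.95 (SE 0.157, 95% interval -2.29 to -1.62, adjusted p = 1.61e-05) in the Sohlh2 knockout. By p-value this probe set ranked 7 of 28694 in each comparison. Its adjusted p stayed under 0.05 in both comparisons under all 29 alternatives, the largest being 0.000388 for the Sohlh1 and 0.0014 for the Sohlh2 knockout, including the fits without the arrays that went against their labels.

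The other Kit probe set, 1415900_a_at, was dimmer and noisier. Its signals were 128, 235, 137 and 127 on the Sohlh1 knockout arrays, 21.6, 245, 132 and 182 on the Sohlh2 knockout arrays, and 383, 407, 503 and 514 on the wild-type arrays. Here too no knockout array reached the lowest wild-type array, while Sohlh2 knockout 1, at 21.6, stood far below all others. The means were 157 ± 52.6 in Sohlh1 knockout, 145 ± 94.4 in Sohlh2 knockout and 452 ± 66.3 in wild type (SD, n = 4 each), or 34.7% and 32.1% of wild type. The log2 fold changes were -1.48 (SE 0.449, 95% interval -2.44 to -0.52) and -1.86 (SE 0.449, 95% interval -2.82 to -0.90) in the Sohlh1 and the Sohlh2 knockout, and neither passed limma's test after adjustment over all probe sets (adjusted p = 0.119 and 0.0549).

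Whether 1415900_a_at passed depended on the arrays kept and on the scale. Without Sohlh2 knockout 1 the Sohlh1 knockout value stayed at -1.48, but the SE fell to 0.211 and the adjusted p to 0.000916, since all groups share 1 estimate of the spread. The Sohlh2 knockout value was then -1.25 (SE 0.228, adjusted p = 0.0103). Leaving out Sohlh2 knockout 3-1 in place of it gave -2.20 with an adjusted p of 0.0325 in the Sohlh2 knockout. With all 12 arrays kept, it passed in the Sohlh1 and the Sohlh2 knockout with the log offset at the median (adjusted p = 0.0348 and 0.0184) and with array weights (adjusted p = 0.0106 and 0.00857). Sohlh2 knockout 1 is the array with the highest 3′ to 5′ control ratio and one of those that went against their labels, and the part of either in its low signal was not tested.

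Of the 2 Kit probe sets, 1 passed as lower in the Sohlh1 knockout, where 1.38% of the 28694 probe sets tested did, and 1 in the Sohlh2 knockout, where 0.944% did. Both Kit probe sets lay wholly below wild type in each comparison, against 6.08% of all probe sets in the Sohlh1 and 4.69% in the Sohlh2 knockout. The 2 comparisons share the wild-type arrays. Over all probe sets 600 were called in either direction in the Sohlh1 and 445 in the Sohlh2 knockout, and leaving out 1 array moved these counts to between 230 (without wild type 6) and 1238 (without Sohlh2 knockout 1) for the first and to between 202 (without wild type 4) and 503 (without Sohlh2 knockout 1) for the second.

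**Figure D1:**
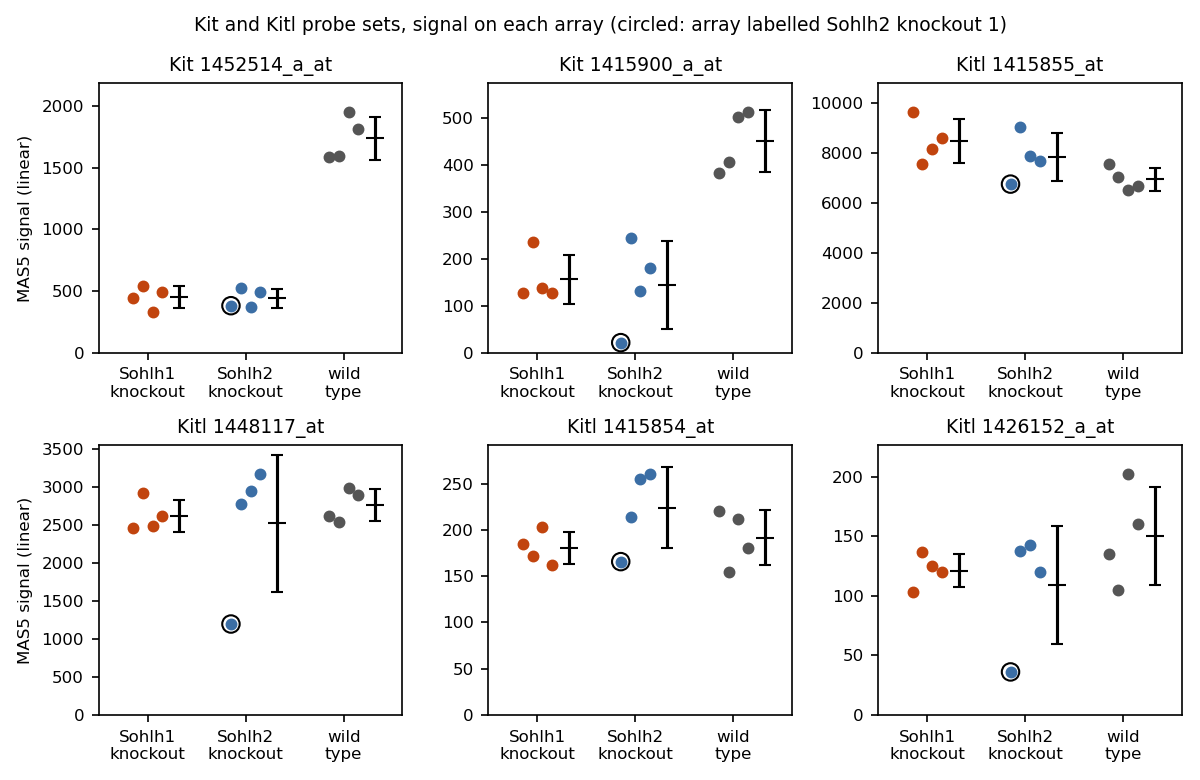
MAS5 signal (linear vertical axis from 0) of the 2 Kit and 4 Kitl probe sets on each of the 12 arrays, by group, with horizontal ticks at the group means and bars of 1 SD (n = 4). Both Kit probe sets lie below every wild-type array on all 8 knockout arrays, while Kitl signals in the knockouts lie near or among the wild-type signals apart from the circled array labelled Sohlh2 knockout 1 for 1448117_at and 1426152_a_at.

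Kitl showed no fall of this size, and no Kitl probe set passed the test in any comparison. The brightest, 1415855_at, had signals of 9657, 7581, 8162 and 8626 on the Sohlh1 knockout arrays, 6762, 9067, 7881 and 7699 on the Sohlh2 knockout arrays, and 7562, 7051, 6535 and 6676 on the wild-type arrays. The lowest Sohlh1 knockout array was just above the highest wild-type array, so these groups did not overlap. Sohlh2 knockout 1 lay within the wild-type range, while Sohlh2 knockout 3-1, 4 and 5 lay above it. The means were 8506 ± 878 in Sohlh1 knockout, 7852 ± 947 in Sohlh2 knockout and 6956 ± 459 in wild type (SD, n = 4 each), or 122% and 113% of wild type. The log2 fold change was 0.29 (SE 0.101, 95% interval 0.07 to 0.50) in the Sohlh1 knockout, where the adjusted p was 0.185. It was 0.17 (95% interval -0.05 to 0.38, adjusted p = 0.499) in the Sohlh2 knockout. Of the 4 Kitl probe sets 1 lay wholly above wild type in the Sohlh1 knockout, where 5.07% of all probe sets did, and 0 passed as higher, where 0.707% did. In the Sohlh2 knockout 0 of 4 lay wholly above wild type, against 4.14%, and 0 of 4 passed, against 0.606%. For 1415855_at the overlap rested on the doubted array Sohlh2 knockout 1, and the share of all probe sets without that array was not counted.

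The second brightest Kitl probe set, 1448117_at, read 2460, 2925, 2486 and 2616 on the Sohlh1 knockout arrays, 1198, 2782, 2950 and 3171 on the Sohlh2 knockout arrays, and 2624, 2539, 2990 and 2901 on the wild-type arrays. All but Sohlh2 knockout 1 lay between the lowest Sohlh1 knockout and the highest Sohlh2 knockout value, a narrow band in which the groups overlapped. The log2 fold change was -0.08 (95% interval -0.56 to 0.41, limma adjusted p = 0.913) for Sohlh1 loss and -0.22 (95% interval -0.71 to 0.26, adjusted p = 0.717) for Sohlh2 loss. Without Sohlh2 knockout 1 the Sohlh2 knockout value turned to 0.10 (adjusted p = 0.736).

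The remaining Kitl probe sets were dim. 1415854_at averaged 180 ± 17.6 in Sohlh1 knockout, 224 ± 44.0 in Sohlh2 knockout and 192 ± 29.9 in wild type (SD, n = 4 each), with log2 fold changes of -0.07 (95% interval -0.44 to 0.29) and 0.20 (95% interval -0.16 to 0.57). 1426152_a_at averaged 121 ± 13.97 in Sohlh1 knockout, 109 ± 49.6 in Sohlh2 knockout and 151 ± 41.2 in wild type, with log2 fold changes of -0.26 (95% interval -0.93 to 0.42) and -0.51 (95% interval -1.19 to 0.16). The Sohlh2 knockout mean of 1426152_a_at includes 36.2 on Sohlh2 knockout 1, and without that array the change was -0.13. Groups overlapped for both probe sets in both comparisons, and the adjusted p-values in limma were between 0.516 and 0.881. The files do not say which part of the transcripts each probe set matches, so the membrane-bound and soluble forms of Kitl were not separated, and signals of different probe sets were not set against each other.

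**Figure D2:**
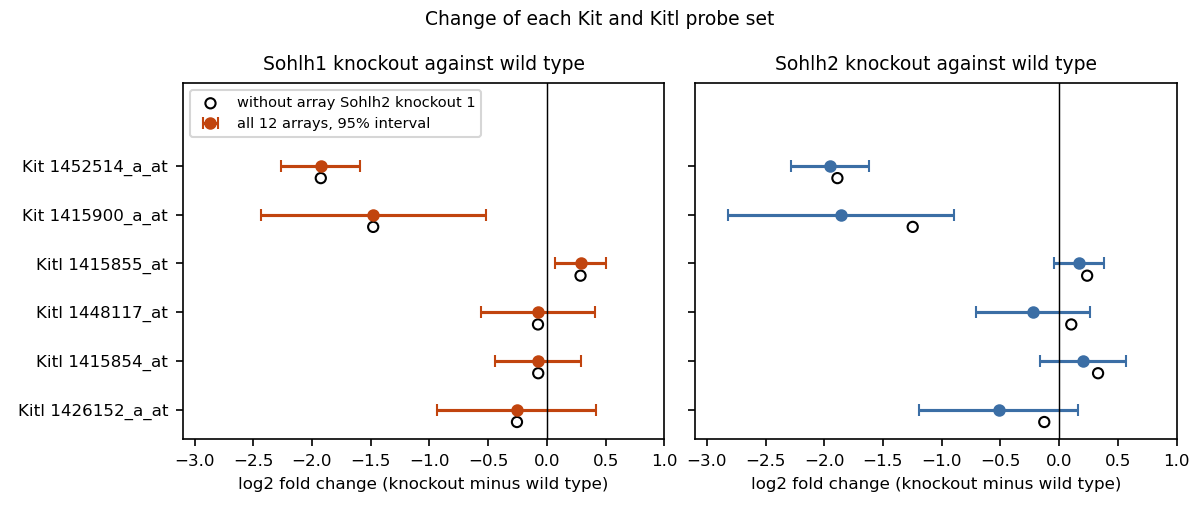
Log2 fold change, knockout minus wild type, of each Kit and Kitl probe set on the log2(signal + 14.2) scale, with 95% intervals from the fit of all 12 arrays (filled points) and the value without the array labelled Sohlh2 knockout 1 (open points). The intervals of both Kit probe sets lie below 0 in both comparisons, and those of the Kitl probe sets include 0 except for 1415855_at in the Sohlh1 knockout.

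The array labelled Sohlh2 knockout 1 showed how far the probe sets of 1 gene can part on 1 array. Relative to the wild-type mean on the log2 scale, it read -2.14 for Kit 1452514_a_at and -3.69 for Kit 1415900_a_at. For Kitl it read -0.04 for 1415855_at, -1.19 for 1448117_at, -0.18 for 1415854_at and -1.68 for 1426152_a_at. On the other 7 knockout arrays the 2 Kit probe sets lay at -2.35 to -1.65 and at -1.71 to -0.84, and no Kitl probe set lay below -0.46.

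**Figure D3:**
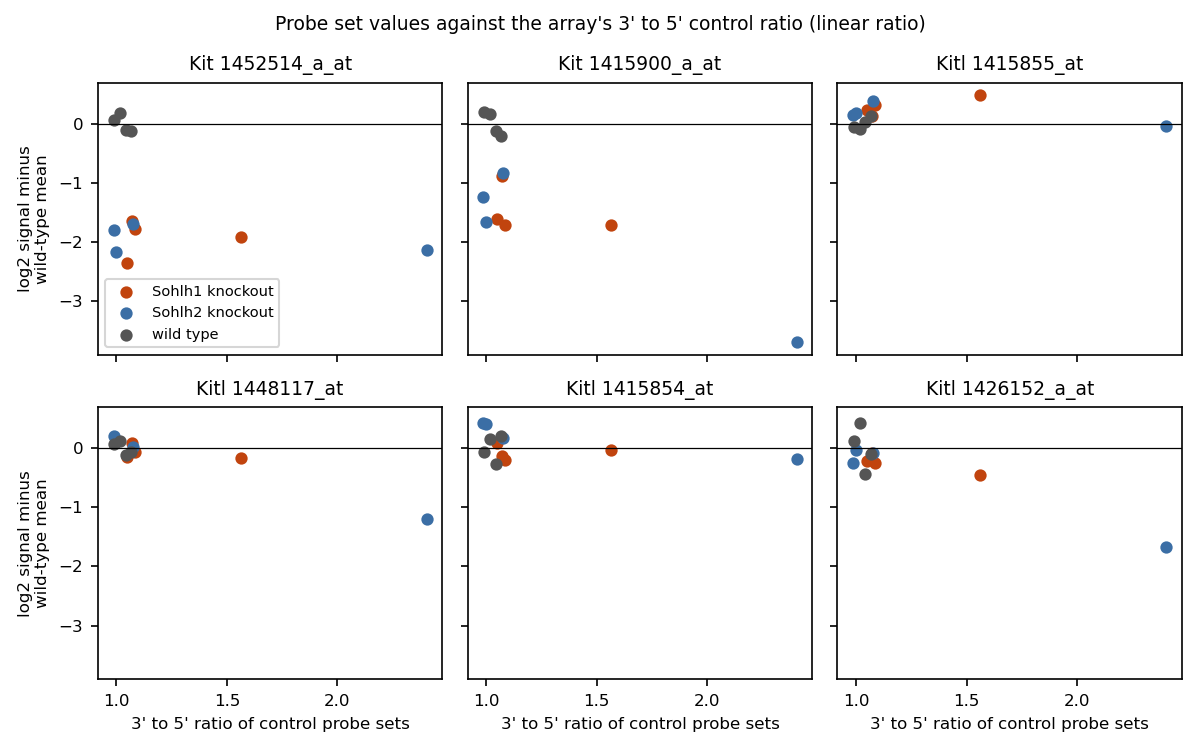
Log2 signal of each probe set minus its wild-type mean (vertical axis) against the linear 3′ to 5′ ratio of the control probe sets (horizontal axis) on each of the 12 arrays, coloured by group. The array at a ratio of 2.405 is Sohlh2 knockout 1, which stands apart for Kit 1415900_a_at and Kitl 1448117_at and 1426152_a_at, while the fall of Kit 1452514_a_at is as large on arrays with a ratio near 1.

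Set within each array, receptor and ligand moved unequally. The difference log2(Kit 1452514_a_at) minus log2(Kitl 1415855_at) was -4.39, -3.77, -4.57 and -4.09 on the Sohlh1 knockout arrays, -4.10, -4.08, -4.35 and -3.93 on the Sohlh2 knockout arrays, and -2.24, -2.13, -1.74 and -1.87 on the wild-type arrays. All 8 knockout arrays lay below all 4 wild-type arrays. Its level carries no meaning across probe sets, but its shift between groups was -2.21 in the Sohlh1 and -2.12 in the Sohlh2 knockout (means -4.21 ± 0.352 in Sohlh1 knockout, -4.12 ± 0.175 in Sohlh2 knockout and -1.99 ± 0.232 in wild type, SD, n = 4 each). An exact two-sided permutation test over the 70 arrangements gave p = 0.0286 for each knockout, the smallest that 4 against 4 arrays allow. Kit 1452514_a_at alone already set all knockout arrays below all wild-type arrays, by more than Kitl 1415855_at varied. The p-value therefore followed from the fall of Kit and is no further support. With all 3 doubted arrays left out the Sohlh1 shift was -2.18 and the exact p 0.0667, the smallest that the 2 remaining Sohlh1 knockout arrays allow.

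Between the knockouts no difference was found for either gene. Sohlh2 knockout minus Sohlh1 knockout was -0.03 (95% interval -0.36 to 0.31) for Kit 1452514_a_at and -0.38 (95% interval -1.34 to 0.58) for Kit 1415900_a_at. For Kitl 1415855_at it was -0.12 (95% interval -0.33 to 0.10), and for Kitl 1415854_at 0.28 (95% interval -0.09 to 0.64). Of the 6 probe sets 0 passed, as did 0% of the 28694 tested in limma, 767 of which had an unadjusted p under 0.05, and between 0 and 11 passed under the alternatives. Each of the groups compared held an array that went against its label. Without those arrays both Kit differences changed sign, and 9 of all probe sets passed, none of them for Kit or Kitl. The interval for the brighter Kit probe set is the narrower of the pair, and missing the threshold does not show that the levels are alike.

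Genes that act behind Kit in the cell were called about as often as genes in general. Of 48 listed adaptors, kinases and effectors 39 were tested, and 1 was called higher and 0 lower in each knockout, where 1.06% and 1.83% of 13702 genes were called higher and lower in the Sohlh1 and 0.898% and 1.28% in the Sohlh2 knockout. The list's median log2 fold change was 0.01 and 0.00 in the Sohlh1 and the Sohlh2 knockout, beside 0.03 and 0.02 over all genes. The called gene was Plcg2, a phospholipase that acts behind receptor kinases, with means of 1096 ± 180 in Sohlh1 knockout, 1166 ± 152 in Sohlh2 knockout and 753 ± 79.7 in wild type (SD, n = 4 each). Its log2 fold changes of 0.53 (adjusted p = 0.0495) and 0.62 (adjusted p = 0.0259) were near the threshold. Leaving out any one of wild type 4, 5 or 6, Sohlh1 knockout 2, 3, 4 or 5, or Sohlh2 knockout 4 or 5 ended the Sohlh1 call (adjusted p 0.0651 to 0.159), and leaving out wild type 4, 5 or 6 or Sohlh2 knockout 3-1 or 5 ended the Sohlh2 call (adjusted p 0.052 to 0.0915). Without the 2 arrays against their labels and without all 3 doubted arrays the Sohlh1 call was lost (adjusted p = 0.0758 and 0.12). In the fits without doubted arrays the list had 0 to 2 calls in the Sohlh1 and 1 to 2 in the Sohlh2 knockout. Foxo3, a transcription factor held out of the nucleus by kinases of this pathway, averaged 1923 ± 331 in Sohlh1 knockout, 2485 ± 876 in Sohlh2 knockout and 1437 ± 217 in wild type, and did not pass (log2 fold change 0.73, adjusted p = 0.0955 in the Sohlh2 knockout), though without Sohlh2 knockout 5 it did (adjusted p = 0.0355).

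Of 17 listed genes that limit or end Kit signalling 16 were tested, with 1 called higher in the Sohlh1 and 1 called lower in the Sohlh2 knockout, where 1.06% of genes were called higher and 1.28% lower. Cblb, a ubiquitin ligase that marks activated receptors for degradation, averaged 1625 ± 122 in Sohlh1 knockout, 1362 ± 111 in Sohlh2 knockout and 1167 ± 32.5 in wild type (SD, n = 4 each), with a log2 fold change of 0.47 (adjusted p = 0.0152) in the Sohlh1 and 0.22 (adjusted p = 0.303) in the Sohlh2 knockout. That call was lost without wild type 4, 5 or 6 or Sohlh1 knockout 5 (adjusted p 0.0516 to 0.0553), and without all 3 doubted arrays (adjusted p = 0.0682). Socs6, which binds activated Kit and dampens its signal, averaged 900 ± 61.4 in Sohlh1 knockout, 860 ± 118 in Sohlh2 knockout and 1251 ± 111 in wild type. Its log2 fold change was -0.54 (adjusted p = 0.0308) in the Sohlh2 and -0.47 (adjusted p = 0.0513) in the Sohlh1 knockout. The Sohlh2 call was lost without wild type 4, 5 or 6 or Sohlh2 knockout 3-1 or 4 (adjusted p 0.0569 to 0.104), and the Sohlh1 value passed without wild type 3 (adjusted p = 0.0483) or Sohlh2 knockout 1 (adjusted p = 0.0101), and in each fit without doubted arrays (adjusted p 0.0164 to 0.0351). Medians of this list were -0.03 and 0.08 in the Sohlh1 and the Sohlh2 knockout.

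All 6 listed genes that cleave Kitl or restrain its cleavage were tested. Adam17 and Adam10, proteases that shed membrane proteins, averaged 1498 ± 176 and 4511 ± 182 in Sohlh1 knockout, 1578 ± 66.6 and 4441 ± 530.5 in Sohlh2 knockout and 1431 ± 65.0 and 3921 ± 329 in wild type (SD, n = 4 each), with log2 fold changes between 0.06 and 0.21 and adjusted p-values of 0.326 or more. Mmp9, a matrix protease, averaged 136 ± 11.3 in Sohlh1 knockout, 195 ± 67.7 in Sohlh2 knockout and 56.9 ± 29.8 in wild type (SD, n = 4 each), with log2 fold changes of 1.21 (adjusted p = 0.0844) and 1.62 (adjusted p = 0.0249). Cma1, the chymase of mast cells, averaged 262 ± 42.8 in Sohlh1 knockout, 314 ± 65.2 in Sohlh2 knockout and 135 ± 47.3 in wild type, with log2 fold changes of 0.93 (adjusted p = 0.0513) and 1.17 (adjusted p = 0.019). The list thus had 0 calls in the Sohlh1 and 2 in the Sohlh2 knockout, both higher, where 1.06% and 0.898% of genes were called higher. Mmp9 lost its call without wild type 5 or Sohlh2 knockout 3-1, 4 or 5 (adjusted p 0.0566 to 0.0892), and Cma1 without wild type 6 or Sohlh2 knockout 4 or 5 (adjusted p 0.0551 to 0.0722). In the Sohlh1 knockout Mmp9 passed without Sohlh2 knockout 1 (adjusted p = 0.0305) and without the 2 arrays of high ratio (adjusted p = 0.0494), and Cma1 without that array (adjusted p = 0.0306) or wild type 4 (adjusted p = 0.0362).

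Other members of the receptor class of Kit and related receptor kinases, with their ligands, were not called. Of 12 listed genes 10 were tested and 0 passed in either knockout, with medians of 0.13 and 0.14. Among all genes 1.06% were called higher and 1.83% lower in the Sohlh1 knockout. In the Sohlh2 knockout these shares were 0.898% and 1.28%, so 0 calls is near the general rate. Pdgfra, a receptor of the somatic cells, averaged 6528 ± 650.2 in Sohlh1 knockout, 6033 ± 682 in Sohlh2 knockout and 5851 ± 602 in wild type (SD, n = 4 each), with log2 fold changes of 0.16 and 0.04. Kdr, the endothelial receptor for Vegfa, averaged 307 ± 54.5 in Sohlh1 knockout, 319 ± 59.6 in Sohlh2 knockout and 264 ± 74.1 in wild type (0.23 and 0.28). The ligand Pdgfc averaged 1613 ± 69.6 in Sohlh1 knockout, 1665 ± 131.5 in Sohlh2 knockout and 1350 ± 167 in wild type (0.26 and 0.31).

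Kitl was also set beside the other signals that somatic cells of the tubule send to germ cells. Of 20 listed ligands 17 were tested and 0 passed in either knockout, with medians of 0.075 and 0.072. Among all genes 1.06% were called higher and 1.83% lower in the Sohlh1 knockout. In the Sohlh2 knockout these shares were 0.898% and 1.28%, so 0 calls is near the general rate. Gdnf, the Sertoli cell factor that maintains undifferentiated spermatogonia, averaged 485 ± 24.1 in Sohlh1 knockout, 456 ± 24.7 in Sohlh2 knockout and 441 ± 105 in wild type (SD, n = 4 each), with adjusted p-values of 0.637 and 0.863. Dhh, a Sertoli cell ligand that acts on Leydig and peritubular cells, had log2 fold changes of 0.15 and 0.25 (adjusted p = 0.451 and 0.225).

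Among 17 listed receptors for such ligands 16 were tested and 1 passed, as higher, in each knockout. Over all genes 1.06% were called higher in the Sohlh1 and 0.898% in the Sohlh2 knockout. Kit, not on that list, was lower. Gfra1, the co-receptor for Gdnf on undifferentiated spermatogonia, averaged 709 ± 65.2 in Sohlh1 knockout, 738 ± 148 in Sohlh2 knockout and 355 ± 47.7 in wild type (SD, n = 4 each). Its log2 fold change was 0.97 (SE 0.147, adjusted p = 0.00287) and 1.01 (SE 0.147, adjusted p = 0.00261), opposite in sign to that of Kit. With the replicate block and Sohlh2 knockout 3-1 left out the Sohlh2 value was 0.91 (adjusted p = 0.105). Ret, which signals with Gfra1, averaged 338 ± 144 in Sohlh1 knockout, 434 ± 146 in Sohlh2 knockout and 244 ± 47.5 in wild type and did not pass (0.38 and 0.75, adjusted p = 0.60 and 0.282). In the Sohlh2 knockout Ret passed, at 1.01, without the 2 arrays against their labels (adjusted p = 0.0307), without the 2 of high ratio (adjusted p = 0.012) and without all 3 (adjusted p = 0.00581), which made 2 calls on the list. It also passed there with array weights (adjusted p = 0.0301), the control ratio as a covariate (adjusted p = 0.0151) and the replicate block with 3-1 read as 3 (adjusted p = 0.0439), and over all alternatives the list had 0 to 3 calls. Acvr2a, a receptor for activins, had 0.38 and 0.41 (adjusted p = 0.176 and 0.158).

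Of 12 factors reported to act on Kit transcription 11 were tested, with 1 called lower in each knockout. The share of all genes called lower was 1.83% for Sohlh1 loss and 1.28% for Sohlh2 loss. In the Sohlh1 knockout the called factor was the targeted Sohlh1 itself (log2 fold change -3.12, adjusted p = 0.0118), so that call says nothing of the other factors. In the Sohlh2 knockout it was Dmrt1, a regulator that holds spermatogonia back from meiosis, which averaged 9786 ± 308 in Sohlh1 knockout, 9480 ± 570 in Sohlh2 knockout and 11850 ± 398 in wild type (SD, n = 4 each). Its log2 fold change was -0.28 (adjusted p = 0.0627) in the Sohlh1 and -0.32 (adjusted p = 0.0352) in the Sohlh2 knockout. The Sohlh2 call was lost without any one of wild type 4, 5 or 6, Sohlh1 knockout 3, 4 or 5, or Sohlh2 knockout 3-1, 4 or 5 (adjusted p 0.0509 to 0.125), and without the 2 arrays against their labels (adjusted p = 0.0511). The Sohlh1 value passed without Sohlh2 knockout 1 (adjusted p = 0.0365) and without the 2 arrays of high ratio (adjusted p = 0.0482). Over the alternatives the Sohlh2 knockout had 0 to 3 calls on this list, with 2 without the arrays against their labels and 3 without all 3 doubted arrays. Without the arrays against their labels Sohlh1 was at -1.19 (adjusted p = 0.0031) and Sohlh2 at -3.17 (adjusted p = 2.09e-06) in the Sohlh2 knockout, but these arrays were picked by the signals of these 2 genes, so the values are a description. Zbtb16, reported as a repressor of Kit, averaged 1741 ± 298 in Sohlh1 knockout, 1678 ± 205 in Sohlh2 knockout and 1957 ± 87.1 in wild type (adjusted p = 0.525 and 0.449). Sall4, which binds Zbtb16, had log2 fold changes of 0.23 and 0.32, and Foxo1, a factor of spermatogonial maintenance, -0.26 and -0.10, with adjusted p-values of 0.198 or more.

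Germ cells as a whole and their stages were read beside Kit. Ddx4 and Dazl, RNA-binding proteins of germ cells, averaged 4471 ± 348 and 11370 ± 837 in Sohlh1 knockout, 4357 ± 287 and 12000 ± 669 in Sohlh2 knockout and 4137 ± 297 and 12280 ± 985 in wild type (SD, n = 4 each), with log2 fold changes between -0.11 and 0.11 that did not pass. Of 16 germ cell genes 14 were tested, and 2 were called higher and 1 lower in each knockout. Over all genes 1.06% and 1.83% were called higher and lower in the Sohlh1 and 0.898% and 1.28% in the Sohlh2 knockout. The summed signal of the 14 was 35360 to 40870 in Sohlh1 knockout, 38000 to 41590 in Sohlh2 knockout and 37820 to 43320 in wild type. The lower one was Tex11, a meiotic gene, at -1.04 and -0.87, and the higher ones were Dppa4 at 1.33 and 1.32 and Stk31 at 0.50 and 0.55.

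Of 10 markers of differentiating spermatogonia, all tested, 5 fell in the Sohlh1 and 4 in the Sohlh2 knockout and 0 rose, with medians of -1.11 and -1.40. Over all genes 1.83% were called lower in the Sohlh1 and 1.28% in the Sohlh2 knockout. Crabp1, which binds retinoic acid, averaged 537 ± 108 in Sohlh1 knockout, 633 ± 44.8 in Sohlh2 knockout and 3011 ± 363 in wild type (SD, n = 4 each). Dmrtb1, Esx1 and Uchl1 fell too, by log2 changes of -2.52, -2.13 and -1.14 in the Sohlh1 and -2.21, -2.03 and -1.13 in the Sohlh2 knockout, and the fifth in the Sohlh1 knockout was Sohlh1. The fall of Kit 1452514_a_at lay within this range. The list holds the targeted genes Sohlh1 and Sohlh2, so both medians include them. In the Sohlh2 knockout the median lies between Sohlh1 at -1.66 and Uchl1 at -1.13.

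The 17 markers of undifferentiated spermatogonia went both ways: 15 were tested, and 3 rose and 2 fell in each knockout. The shares of all genes that rose and fell were 1.06% and 1.83% in the Sohlh1 and 0.898% and 1.28% in the Sohlh2 knockout. Gfra1, Id4 and Pou5f1 rose, Id4 by 0.82 and 0.81 and Pou5f1 by 1.00 and 1.35. Sox3 fell by 1.11 and 1.00 and Neurog3 by 1.19 and 0.98 on the log2 scale, genes of the later undifferentiated cells from which Kit-bearing cells arise. These lists overlap in part and were chosen with earlier results of these data known, so their direction is not independent evidence.

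The source of Kitl was read from Sertoli cell markers. Of 22 listed 21 were tested and 0 passed in either knockout, with medians of 0.16 and 0.07. Among all genes 1.06% were called higher and 1.83% lower in the Sohlh1 knockout. In the Sohlh2 knockout these shares were 0.898% and 1.28%, so 0 calls is near the general rate. Their summed signal was 143100 to 158000 in Sohlh1 knockout, 132600 to 150500 in Sohlh2 knockout and 124100 to 143900 in wild type. The ranges overlapped, with the Sohlh1 knockout range reaching highest and the wild-type range lowest. Kitl 1415855_at had the same order, but its Sohlh1 knockout and wild-type ranges did not overlap. The part of Sertoli cell number in the Kitl values was not tested.

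Markers of other cells that can carry Kit were not called lower, where 1.83% of all genes were in the Sohlh1 and 1.28% in the Sohlh2 knockout. With lists this short, 0 calls says little about these cells. Of 12 Leydig cell markers 8 were tested and 0 passed, with summed signals of 16240 to 17690 in Sohlh1 knockout, 15020 to 17050 in Sohlh2 knockout and 14030 to 18120 in wild type. Of 7 melanocyte markers 5 were tested and 0 passed. Of 12 mast cell markers 7 were tested, with 0 calls in the Sohlh1 and 3 in the Sohlh2 knockout, all higher, and medians of 0.88 and 1.17. Over all genes 1.06% were called higher in the Sohlh1 and 0.898% in the Sohlh2 knockout. The summed signal of the mast cell markers was 1781 to 2471 in Sohlh1 knockout, 1804 to 3208 in Sohlh2 knockout and 974 to 1695 in wild type. The called mast cell genes were Cma1 and a pair of other mast cell proteases. Cpa3 averaged 381 ± 111 in Sohlh1 knockout, 451 ± 115 in Sohlh2 knockout and 175 ± 88.6 in wild type, and Mcpt4 236 ± 33.9 in Sohlh1 knockout, 295 ± 72.8 in Sohlh2 knockout and 109.5 ± 74.6 in wild type (SD, n = 4 each). In the Sohlh2 knockout Cpa3 changed by 1.38 (adjusted p = 0.0286) and Mcpt4 by 1.49 (adjusted p = 0.0374). The calls were lost for Cpa3 without wild type 3, 5 or 6 or Sohlh2 knockout 4 (0.0623 to 0.0981), and for Mcpt4 without wild type 3, 5 or 6, Sohlh1 knockout 3, 4 or 5, or Sohlh2 knockout 3-1, 4 or 5 (0.0528 to 0.118). Mcpt4 also lost it without the arrays against their labels (0.0639) and without all 3 doubted arrays (0.0533). In the Sohlh1 knockout both passed without wild type 4 (0.0196 and 0.0126) or Sohlh2 knockout 1 (0.0333 and 0.0478), and Cpa3 without the arrays against their labels (0.0361). The defining mast cell receptor genes Fcer1a and Ms4a2 were too dim to test, with means of 9.83 and 17.1 in the Sohlh1 knockout, 14.6 and 34.8 in the Sohlh2 knockout and 4.78 and 5.21 in wild type. Of the markers of peritubular cells (8 tested), endothelium (8), macrophages (8) and erythroid cells (2), 0 passed in either knockout.

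**Figure D4:**
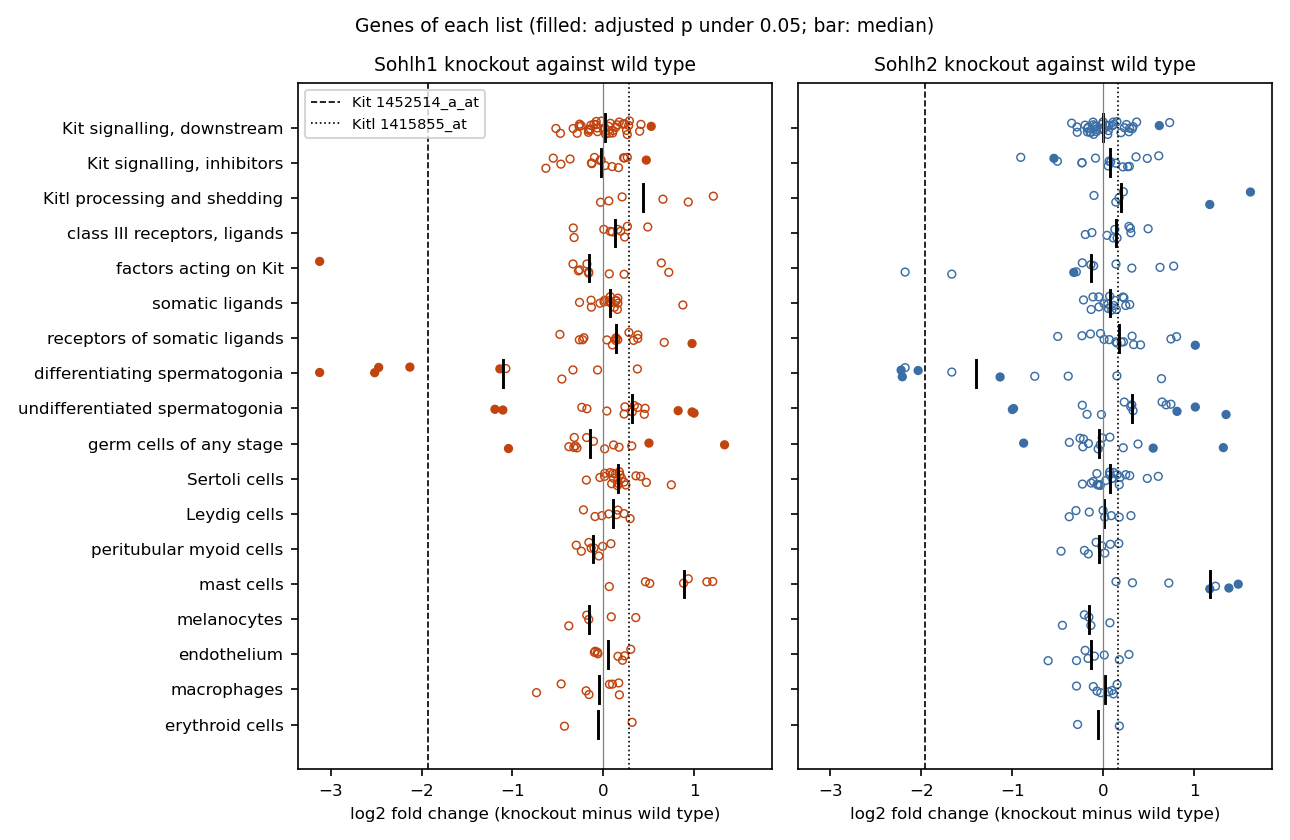
Log2 fold change (horizontal axis, knockout minus wild type) of every tested gene of each list, filled where the adjusted p was under 0.05, with a vertical bar at the list's median and lines at Kit 1452514_a_at (dashed) and Kitl 1415855_at (dotted). Genes of differentiating spermatogonia, with the targeted Sohlh1 and Sohlh2 among them, have medians of -1.11 and -1.40 beside Kit at -1.92 and -1.95. Sertoli cell genes have medians of 0.16 and 0.07 beside Kitl at 0.29 and 0.17, and the genes downstream of Kit lie around 0.

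The genes with the profile most like Kit over the 12 arrays were found by the root mean square difference of log2 values centred on each gene's own mean, among 13701 other genes. The nearest was Ccng1, cyclin G, with a difference of 0.211, followed by Mbnl3, an RNA-binding protein, at 0.219, the transcription factor Tbx1 at 0.290, and Crabp1 at 0.337. Slc27a2, a fatty acid activating enzyme, stood at 0.345, the acyltransferase Lpgat1 at 0.347, the secreted factor Prok2 at 0.373 and the kinase Camk4 at 0.383. Ccng1 averaged 853 ± 94.5 in Sohlh1 knockout, 937 ± 132 in Sohlh2 knockout and 2930 ± 285 in wild type (SD, n = 4 each), and Mbnl3 averaged 401 ± 49.6 in Sohlh1 knockout, 398 ± 18.5 in Sohlh2 knockout and 1422 ± 160 in wild type. The measure picks genes that share the difference between knockouts and wild type, so it is a description with no test, and it says nothing of shared control.

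All 8 were lower in both knockouts in limma, with log2 fold changes between -2.47 and -1.50 in the Sohlh1 and between -2.22 and -1.29 in the Sohlh2 knockout. Being lower followed from how the genes were picked, so these calls are a description and no further support. The 2 dimmest, Prok2 and Camk4, averaged 23.1 ± 11.5 and 41.8 ± 27.1 in Sohlh1 knockout and 28.8 ± 20.2 and 39.3 ± 18.4 in Sohlh2 knockout. In wild type they averaged 121 ± 39.8 and 147 ± 50.1 (SD, n = 4 each). Their knockout means lay below the filter value of 48.6, and their calls rested on single arrays. In the Sohlh1 knockout Prok2 (adjusted p = 0.0268) lost its call without wild type 4, 5 or 6 or Sohlh1 knockout 2 or 4 (0.0502 to 0.107), and Camk4 (adjusted p = 0.0387) without any wild-type array, Sohlh1 knockout 2, 3 or 4, or Sohlh2 knockout 3-1 or 4 (0.051 to 0.142). In the Sohlh2 knockout Prok2 (adjusted p = 0.0416) lost it without any wild-type array, Sohlh1 knockout 3 or 5, or Sohlh2 knockout 1, 4 or 5 (0.0537 to 0.15), and Camk4 (adjusted p = 0.0431) without any wild-type array, Sohlh1 knockout 3, or Sohlh2 knockout 1, 3-1 or 4 (0.0603 to 0.153). Without all 3 doubted arrays Prok2 was not called in either knockout (0.0698 and 0.0538), and in the Sohlh2 knockout neither gene was called without the arrays against their labels (0.0652 and 0.0503), nor Camk4 without those of high ratio (0.0648).

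The 4 genes nearest to Kitl were Tm2d1 at 0.073, Rsrc1 at 0.076, Mterf3 at 0.080 and the histone chaperone Asf1a at 0.083. None of these 4 passed in either knockout, with log2 fold changes between 0.16 and 0.26 in the Sohlh1 and between 0.03 and 0.25 in the Sohlh2 knockout. Kitl varied less between arrays than Kit did, so these differences cannot be set against those for Kit.

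**Figure D5:**
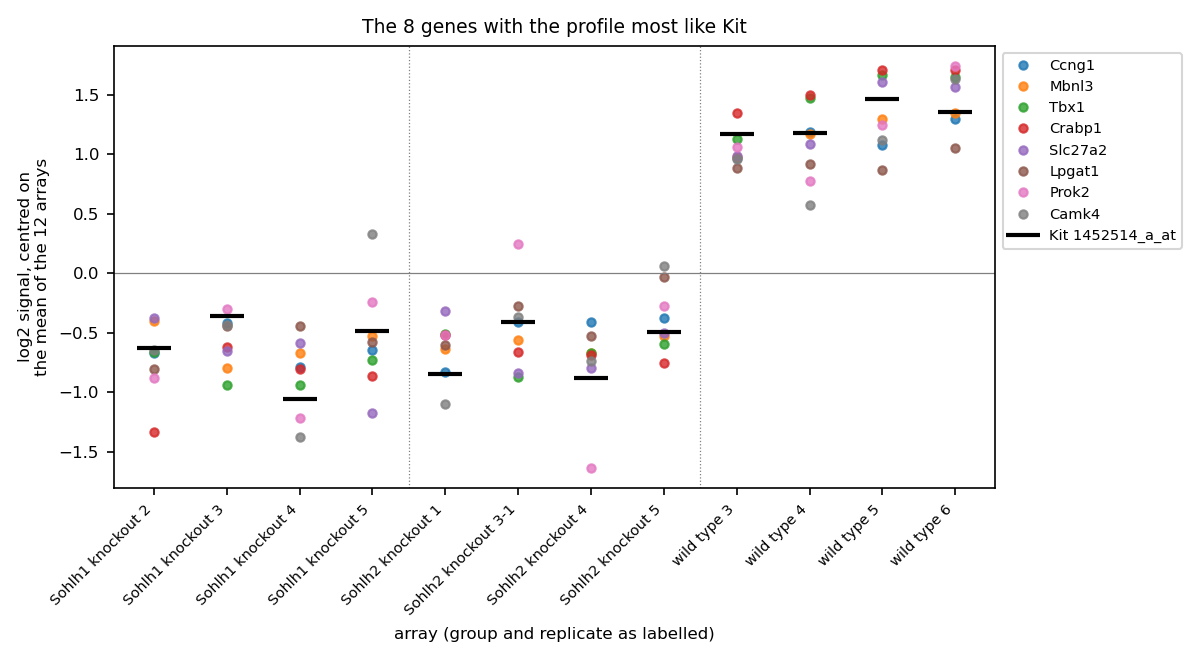
Log2 signal centred on the mean of the 12 arrays (vertical axis) of Kit 1452514_a_at (black bars) and the 8 genes of most similar profile (coloured points), by array. Kit and all 8 genes lie above 0 on the 4 wild-type arrays, and Kit lies below 0 on all 8 knockout arrays, as do the genes other than Prok2 and Camk4.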

How the data were processed

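RNA from 12 arrays in 3 groups of 4 was analysed, grouped by sample title. The deposited table holds signal intensity on a linear scale, which the authors made using MAS5 and GCOS (source: the submitters' processing notes). Tool settings were not given in the sources used here, and detection calls were not used here. Per the labels' protocols an oligo(dT) primer was used for labelling, so 3′ ends dominate the signal. Array medians were 76.7 to 90.7. The number of arrays limits the precision.

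Signals became log2(signal + 14.2), the offset being the 20th percentile over the 45037 non-control probe sets, without further normalization. Probe sets above 48.6, the 40th percentile, on at least 4 arrays were tested (28694). limma 3.58.1 under R 4.3.3 (lmFit, then contrasts.fit and eBayes with trend, two-sided) fitted genotype alone over all 12 arrays, with Benjamini-Hochberg adjustment over every probe set tested. A gene was called, and rose or fell, where its adjusted p was below 0.05. P-values reflect spread among pools of 3 testes. In gene lists each of 13702 genes was represented by its brightest probe set with exactly 1 symbol. Entrez identifiers matched 34741 of the 34945 probe sets with 1 symbol to RefSeq, and 0 symbols changed.

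Named were every Kit and Kitl probe set, Sohlh1 and Sohlh2, at most 4 genes a list (smallest p first), genes tied directly to Kit or Kitl, and the 8 and 4 genes of most similar profile. Fcer1a, Ms4a2 and Id4 fell outside that rule and were picked with their values in view. The members and lists were chosen with earlier results of these data known. The steps were tested on simulated data. Alternatives were other offsets, normalizations, filters and fits, array weights, the replicate block, the control ratio as a covariate, and fits with arrays left out. Scan dates were not used here. The highest correlation between arrays was 0.979, and 0 arrays held identical values. Figures were drawn with matplotlib 3.10.9.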

Additional observations from a re-analysis of the deposited data

Results flagged for a closer look

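Of 165 groups of 4 arrays checked, 12 had 1 array that stood apart by Dixon's 95% limit on its gap to the nearest neighbour over the group's range, where chance gives about 1 in 20. For Kit 1415900_a_at the array labelled Sohlh1 knockout 3 read 235, against 127 to 137 on its 3 fellow arrays, and still lay below all wild-type arrays. Among the targeted genes, Sohlh1 read 595 on Sohlh1 knockout 5, and Sohlh2 read 94.4 on Sohlh1 knockout 5 and 1847 on Sohlh2 knockout 1. On Sohlh2 knockout 1 Ccng1 read 739.9, against 995 to 1017 on the rest of its group. There Socs6 read 684, against 904 to 932, and Nr5a1, a steroidogenic factor on the Sertoli and Leydig lists, 2740, against 2217 to 2290. Plcg2 read 1364 on Sohlh1 knockout 5, against 982 to 1033, and Asf1a 4112 on Sohlh1 knockout 2, against 3662 to 3730. Kdr read 231 on Sohlh2 knockout 5, against 339.5 to 359. In wild type Pdgfc read 1101 on array 6, against 1404 to 1455, and Rsrc1 650.5 on array 3, against 499 to 518. The causes were not tested.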

How the results depend on the processing

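Kit 1452514_a_at kept its direction and its call in both knockouts under all 29 alternatives, and no Kitl probe set was called under any. Kit 1415900_a_at kept its direction and passed in some. In the Sohlh1 knockout it passed at -1.173 with the offset at the median, -1.390 with array weights, -1.479 with only the 2 groups compared and -1.151 with the control ratio as a covariate. It also passed at -1.401 without the 2 arrays against their labels, -1.404 without the 2 of high ratio and -1.250 without all 3, and its range without 1 array was -1.676 to -1.401. In the Sohlh2 knockout it passed at -1.342 with that offset, -1.861 with quantile normalization, -1.822 with median centring, -1.417 with weights, -1.350 with the covariate and -1.247 in each of the 3 fits without doubted arrays, with a range of -2.199 to -1.247 without 1 array. In these fits 2 of the 6 probe sets were called, against 1 otherwise, and without 1 array the count was 1 to 2. The shift of Kit minus Kitl in the Sohlh1 knockout was -2.178 without all 3 arrays (exact p = 0.0667), with fewer arrays. Over 25 alternatives it was -2.356 to -1.224 in the Sohlh1 and -2.202 to -1.344 in the Sohlh2 knockout, the smallest of each with Kit 1415900_a_at and Kitl 1426152_a_at.

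Values near 0 changed sign. For Kitl 1448117_at the Sohlh2 knockout value was 0.064 with weights, 0.103 in each fit without doubted arrays, 0.051 with the covariate and -0.361 to 0.103 without 1 array, and the Sohlh1 knockout value was 0.100 with the covariate. Sohlh2 minus Sohlh1 knockout, without the arrays against their labels, those of high ratio and all 3, was 0.085, 0.037 and 0.110 for Kit 1452514_a_at and 0.154, 0.156 and 0.002 for Kit 1415900_a_at. It was 0.179, 0.150 and 0.136 for Kitl 1448117_at and 0.126, 0.061 and 0.024 for Kitl 1426152_a_at, and for Kitl 1415855_at 0.015 without those of high ratio and 0.059 without all 3. With weights it was 0.101 for 1448117_at and 0.003 for 1426152_a_at. Without 1 array it ran over -0.168 to 0.064 and -0.720 to 0.232 for the 2 Kit probe sets, -0.285 to 0.179 for 1448117_at and -0.418 to 0.128 for 1426152_a_at. Dazl in the Sohlh2 knockout was 0.005 with centring, 0.006 with weights and -0.072 to 0.008 without 1 array. There Gdnf was -0.007 to 0.221, Mterf3 -0.029 to 0.105 and Pdgfra -0.019 to 0.112 without 1 array. Sohlh2 in the Sohlh1 knockout was 0.649 without the arrays against their labels, 0.689 without all 3 and -0.701 to 0.649 without 1 array.

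The replicate block could be fitted only over arrays numbered 3, 4 and 5, which drops Sohlh1 knockout 2, Sohlh2 knockout 1 and wild type 6. Deviations of same-numbered arrays from their group means had correlations of -0.117 to 0.101. Differently numbered arrays were not compared, so whether the numbers pair the samples is not settled. With the block, 3-1 read as 3, 480 and 393 probe sets were called in the Sohlh1 and the Sohlh2 knockout, and with 3-1 left out 343 and 95. Kit 1415900_a_at was -1.340 in the Sohlh1 knockout in both block fits and -1.183 in the Sohlh2 knockout with 3-1 read as 3, with 2 probe sets called. With 3-1 left out the Sohlh2 calls of Gfra1 (adjusted p = 0.105), Neurog3 (adjusted p = 0.0582) and Stk31 (adjusted p = 0.0707) were lost. Kitl 1448117_at was 0.128 with 3-1 read as 3 and 0.194 with it left out, and Dazl 0.018 and 0.056, in the Sohlh2 knockout. Sohlh2 minus Sohlh1 knockout with 3-1 read as 3 was 0.037 and 0.156 for the Kit probe sets, 0.015 for Kitl 1415855_at, 0.150 for 1448117_at and 0.061 for 1426152_a_at, and with it left out 0.041 for Kit 1415900_a_at, 0.217 for 1448117_at and 0.047 for 1426152_a_at.

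Counts over all probe sets in the Sohlh1 and the Sohlh2 knockout, 600 and 445, were 343 and 293 without the mean-variance trend, 1227 and 1075 with weights, 1230 and 789 with the covariate, and 991 and 747 without the arrays of high ratio. They were 488 and 767 without all 3 arrays and 758 and 283 with only the groups compared. Between the knockouts 9 were called without the arrays against their labels and 11 without all 3. The other named genes gave 96 results and 2778 fits, of which 2553 kept side and direction, 146 lost a call, 65 gained one and 14 changed sign. Apart from the effect of fewer arrays, causes were not tested. With 4 pools a group, dim probe sets, wide intervals and bulk tissue limit what can be seen.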
